A study of Citrus sinensis with 5 samples.

Results

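Among the transcripts that fill most of the sequenced RNA of a sweet orange leaf, a set of 131 genes was moderately higher in plants kept for months in acid. The set holds 131 of the 28766 genes listed, and 131 of the 2702 genes with a mean normalized count of at least 1500 over the 5 libraries, called abundant genes here. The normalized count is the authors' own column, the gene's read count multiplied by nearly 1 factor per library, and it is not divided by gene length. A gene was taken where its lower pH 2.5 library, with 10 added, stood at 1.4 up to 2.5 times its highest pH 6 library, with 10 added. These values chose the genes, so the difference between treatments is described below and not tested, and it supports nothing about the set.

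Leaf RNA was sequenced from seedlings of Citrus sinensis, sweet orange, held at pH 2.5 (low pH) or at pH 6 (control) over 9 months. The low pH group had 2 libraries and the control group 3. Leaves of 4 seedlings, grown 1 to a pot, went into each library in equal parts. By the labels these are biological replicates, and no cultivar, genotype or batch is named. Total gene counts ran from 17224516 to 21505928 per library, and both low pH libraries were larger than every control library.

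Acid at the root raises the proton load on root membranes and lowers the uptake of mineral cations such as calcium and magnesium. The leaf can be reached through changes in its water and nutrient supply, among other routes, and no route was examined here. A green leaf devotes much of its messenger RNA to a small number of genes, many of them for photosynthesis. A moderate change in an abundant gene can therefore move more RNA than a large change in a rare one. The files pair the identifiers with no gene names, and 0 of the 28766 identifiers matched the RefSeq gene table for sweet orange (assembly DVS_A1.0). The roles of the genes are therefore not given, the leaf origin could not be checked against named marker genes, and single genes are given by the authors' identifier and position. The sources used here do not give the genome build behind those positions.

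By its choice the set takes a larger share of the leaf RNA at low pH, and the size of that share is given here. Of all gene counts they took 2.51%, 2.45% and 2.57% in the 3 controls, and 5.47% in the first and 6.59% in the second low pH library. The mean share was 2.51% ± 0.0590 (SD, n = 3) in control leaves and 6.03% ± 0.791 (SD, n = 2) in acid-treated ones, a 2.40-fold difference. Control libraries lay close together in this share, while low pH replicate 2 stood above replicate 1. The size of the difference depends on scaling by library totals. Summed normalized counts of the set lay closer together, at 967768 and 1139780 at low pH, and 518097, 484063 and 496762 in controls. In leaf tissue, more cells that express a gene and more of its RNA per cell cannot be told apart by these counts.

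The median normalized count of the 131 genes was 3877 in the first and 4490 in the second low pH library, and 2070, 1849 and 1978 in the controls. On the length-corrected FPKM scale the medians were 143 and 160 at low pH, and 76.1, 67.4 and 71.7 in controls. Ranked by normalized count within each library, 86 and 93 of the genes were among the 1000 highest genes of the low pH libraries. The corresponding numbers were 36, 33 and 36 in the control libraries. Among the 100 highest genes they numbered 12 and 14 at low pH and 5, 7 and 7 in controls. The median rank was 726 and 599 at low pH, and 1934, 2093 and 1953 in controls.

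**Figure D1:**
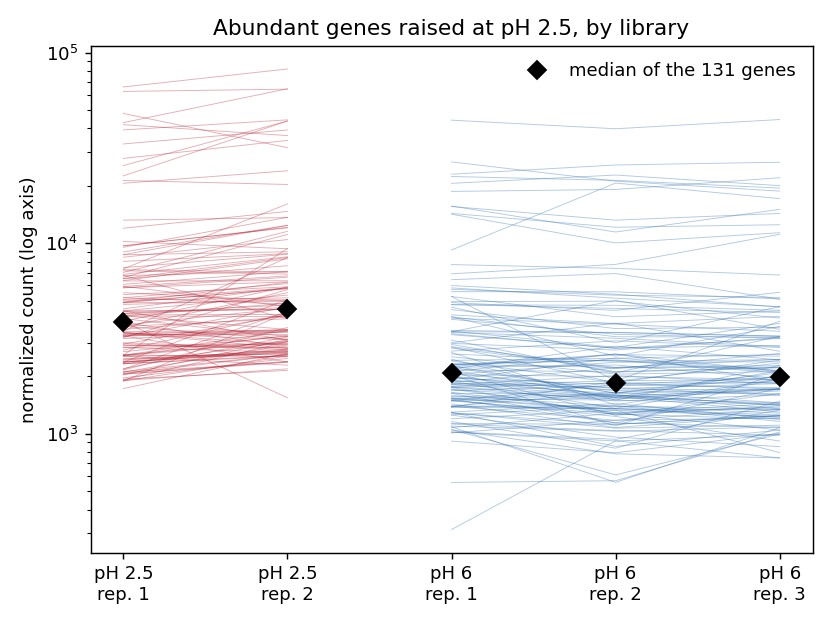
Normalized counts of the 131 genes in each library, on a log axis. Each thin line joins the values of 1 gene within a treatment, and diamonds are medians, at 3877 and 4490 in the low pH libraries and 1849 to 2070 in the controls.

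A small number of genes carried a large part of the reads of the set, and that part was similar in all 5 libraries. The 12 genes with the highest mean normalized counts held 46.7% and 46.5% of the set's counts at low pH, and 44.7%, 46.5% and 46.9% in controls. The 4 highest held 21.7% to 22.5% in each of the 5 libraries. The rule took only genes raised within the same bounds, so the choice of genes largely sets this likeness between treatments, and nothing is read from it.

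The gene with the most reads was orange1.1t00580, on unplaced sequence, named Un in the files (6803949 to 6810998, plus strand), with a model of 3078 bases. Its normalized counts were 66072 and 82125 at low pH, and 44227, 39875 and 44569 in controls. Both low pH libraries were above every control library, and the lower of them by 1.48-fold. On the FPKM scale it averaged 791 ± 44.8 (SD, n = 3) in control leaves and 1363 ± 202 (SD, n = 2) under acid.

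Per unit of length the most abundant gene was Cs6g18330, on chromosome 6 (18478103 to 18483621, plus strand), with a short model of 969 bases. Its FPKM values were 5481 and 5278 at low pH, and 2089, 2360 and 2442 in controls. Its libraries agreed closely within a treatment, with mean FPKM values of 5380 ± 144 (SD, n = 2) and 2297 ± 185 (SD, n = 3). Its fold of mean normalized counts was 2.53, and its lower low pH library exceeded its highest control 2.35-fold, near the upper bound of the rule.

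Cs6g09940 lies on the same chromosome (11639158 to 11646234, plus strand), with a model of 1564 bases. Its FPKM values were 2579 and 2828 at low pH, and 1227, 1262 and 1416 in controls. This gene also showed little scatter, and its fold of mean normalized counts was 2.10.

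Cs7g23510, on chromosome 7 (22203970 to 22207418, plus strand), was less even. Its normalized counts were 42946 and 64639 at low pH, and 26706, 21167 and 18767 in controls. The low pH libraries differed 1.51-fold and the controls 1.42-fold, against 1.61-fold between the treatments at their nearest. The fold of its mean normalized counts was 2.42.

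**Figure D2:**
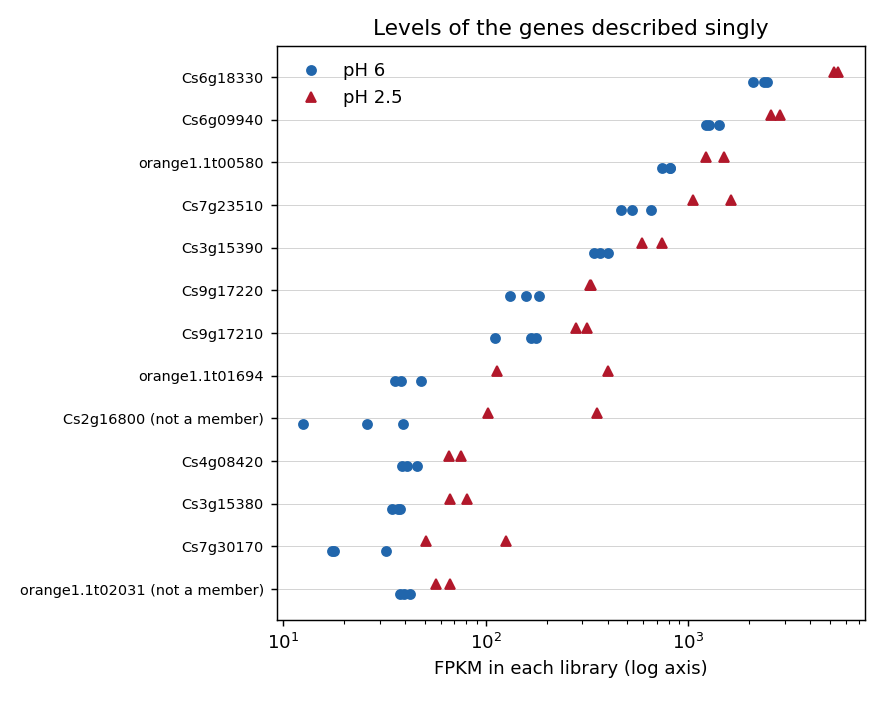
FPKM in each library, on a log axis, of 11 genes of the set and 2 genes just outside its bounds that are described singly. Triangles are low pH libraries and circles are controls, and in every gene shown the triangles lie to the right of the circles, with the triangles farthest apart in orange1.1t01694, Cs2g16800 and Cs7g30170.

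Folds within the set were narrow by construction at the nearest libraries and wider between means. The ratio of the lower low pH to the highest control library had a median of 1.60, with quartiles of 1.51 and 1.79. Low pH over control, as the ratio of mean normalized counts, had a median of 2.00 and ran from 1.45 to 6.96. This ratio was under 2 in 66 genes, from 2 to under 3 in 54, and at least 3 in 11.

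The edges of the set were set by the bounds and not by a break in the values. Just inside the lower bound stood Cs4g08420, on chromosome 4 (5533247 to 5537200, plus strand), at a ratio of 1.41. Its normalized counts were 3394 and 2925 at low pH, and 2070, 1724 and 1831 in controls. Just outside stood orange1.1t02031, at 1.397, with 4396 and 5173 at low pH and 3144, 2952 and 2784 in controls. Both genes had tight libraries and folds of means close to each other, at 1.68 and 1.62. At the upper bound orange1.1t01694 was inside at 2.46, and Cs2g16800, on chromosome 2 (13621293 to 13625666, minus strand), was outside at 2.66. The normalized counts of Cs2g16800 were 1993 and 6935 at low pH, and 743, 240 and 492 in controls, a spread within each treatment of over 3-fold.

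Genes of the set made up 4.28% to 6.82% of every band of read abundance. They were 4.28% of the 794 abundant genes with mean normalized counts from 1500 to under 2000, 4.36% of the 802 from 2000 to under 3000, and 5.38% of the 576 from 3000 to under 5000. They were 5.37% of the 354 genes from 5000 to under 10000 and 6.82%, or 12 genes, of the 176 above that. With the treatments exchanged in the rule, 283 abundant genes were moderately lower at low pH. Their part grew from 7.05% in the first of these bands to 22.7%, or 40 genes, in the last. The difference in trend was not tested.

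The balance of 131 raised and 283 lowered genes depended on the scaling. On counts divided by trimmed-mean (TMM) scaled library sizes the same rule found 132 raised and 297 lowered genes, and on counts divided by library totals alone 252 raised and 166 lowered, so that the balance flipped. Of the 131 genes, 130 and 124 met the rule under these scalings, 98.5% and 49.2% of the genes found. The number of genes found also changed when 1 library was left out. Leaving out a library can only raise or keep a gene's ratio, so the form of the rule favours a larger number. A gene of the set could leave only by passing the upper bound or by falling under the minimum mean. Without low pH replicate 1 the rule found 256 genes, 101 of them in the set, and without replicate 2 it found 154, with 110 in the set. Without control replicates 1, 2 and 3 it found 225, 151 and 150, of which 128, 130 and 128 were in the set.

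**Figure D3:**
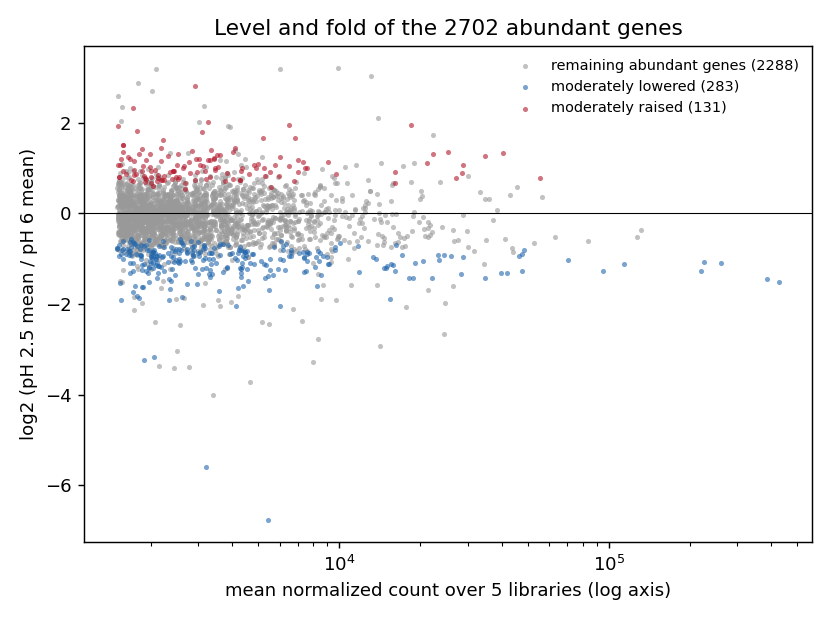
Log2 ratio of the low pH mean to the control mean against the mean normalized count (log axis) for the 2702 abundant genes. The 131 raised genes lie along the whole range up to 55373, the 283 lowered genes reach higher counts, and the remaining 2288 genes lie around 0, with a few far from it.

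In a comparison over all genes, 16946 genes were tested with edgeR's quasi-likelihood test on the counts. Called higher at low pH, at a Benjamini-Hochberg adjusted p under 0.05, were 7.13% of them, 8.07% of the 2702 abundant genes, and 129 of the 131 genes of the set. Since the set was chosen on the same contrast, nothing is read from that count. All 131 genes were tested, and their fitted log2 fold changes, low pH minus control, had a median of 0.98 and ran from 0.53 to 2.79, against a median of 0.02 over all genes tested and -0.12 over the abundant genes. The number called depended on which library was absent. Leaving out low pH replicate 1 gave 104 and leaving out replicate 2 gave 21. For control replicates 1, 2 and 3 the numbers were 70, 19 and 2. Calls fell over the whole table as well, where 5.44%, 1.02%, 2.52%, 0.755% and 0.149% of the genes tested were called higher in these 5 settings, in the same order. The log2 fold change stayed above 0 in each of these settings for all 131 genes. The rule put both low pH libraries above every control, so the choice of genes largely fixes this sign and nothing is read from it.

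The 2 genes not called, named after their values were seen, had controls that lay far apart. Cs4g09550, on chromosome 4 (6388451 to 6389524, minus strand), had FPKM values of 3143 and 2080 at low pH, and 612, 1398 and 1142 in controls. Control replicate 1 was the low library of that gene, and its log2 fold change was 1.33 (SE 0.38). Cs5g09050, on chromosome 5 (6055776 to 6060275, minus strand), had FPKM values of 154 and 136 at low pH, and 65.1, 32.9 and 65.5 in controls. Here control replicate 2 was the low one, and the log2 fold change was 1.05 (SE 0.28).

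A feature that the rule did not use is which of the low pH libraries stood higher, because the rule treats them alike. Replicate 2 was above replicate 1 in 104 of the 131 genes, or 79.4%. Among the 283 moderately lowered genes replicate 2 was the higher one in 48, or 16.96%, and among the remaining 2288 abundant genes in 1103, or 48.2%. Replicate 2 thus lay farther from the controls than replicate 1 in most genes of both the raised and the lowered set. The median ratio of replicate 2 to replicate 1 was 1.14 in the raised set, 0.835 in the lowered set and 0.990 in the remaining genes. The remaining genes mix directions. In 498 of them, short of the rule's lower bound, both low pH libraries were above every control. The same held in 12 at or over its upper bound. Of the 1035 abundant genes with both below every control, those outside the lowered set also remain. Replicate order was not counted apart in these groups. Opposite orders could therefore cancel in the 48.2% and the 0.990. All these genes share the same 2 libraries, so the counts describe the libraries and carry no p-value.

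This order of the low pH libraries hardly moved with the way the values were scaled. Replicate 2 was higher in 77.9% of the 131 genes on TMM-scaled counts, 80.9% on counts per library total and 74.8% on FPKM values. In the remaining genes, which mix both directions, the corresponding values were 47.5%, 52.2% and 49.1%. Leaving out genes whose locus overlaps another left 105 genes of the set, with replicate 2 higher in 80.0%.

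**Figure D4:**
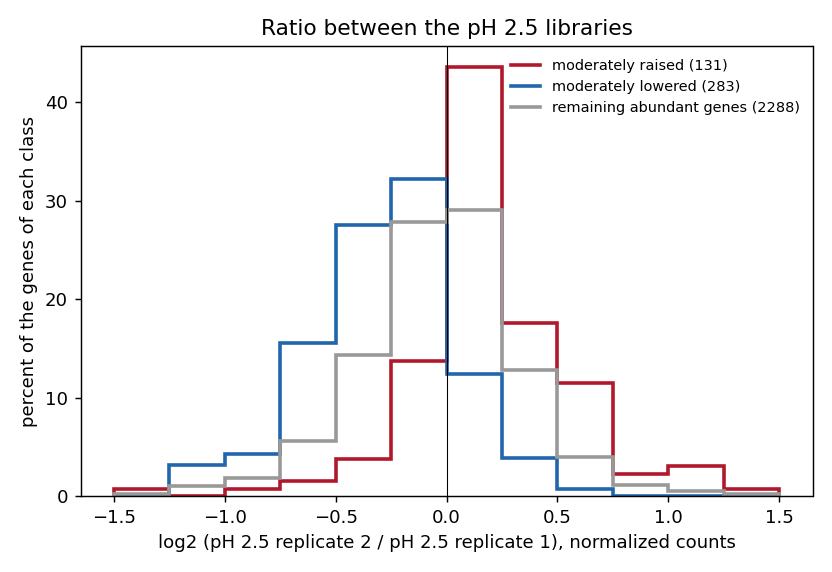
Percent of genes by log2 ratio of low pH replicate 2 to replicate 1, in bins of 0.25, for the 131 raised, 283 lowered and 2288 remaining abundant genes. The raised set lies mostly right of 0 and the lowered set mostly left of it; 1 raised, 1 lowered and 32 remaining genes fall outside the axis.

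The size of the scatter within a treatment was otherwise like that of other abundant genes. The higher low pH library exceeded the lower by a median of 1.17-fold in the set and 1.16-fold in the 2571 abundant genes outside it, and the highest control exceeded the lowest by 1.21-fold and 1.22-fold. Low pH libraries were more than 1.5-fold apart in 22 genes of the set, or 16.8%, against 12.1% of the other abundant genes. In 19 of those 22 replicate 2 was the higher one, against 103 of 312 such genes among the other abundant genes. Of the 45 such genes in the moderately lowered set, replicate 2 was higher in 1. Controls were more than 1.5-fold apart in 22 genes, or 16.8%, against 13.7%. Control replicate 1 was the highest control in 57.3% of the set and in 55.5% of the other abundant genes.

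The gap between the treatments, which the rule itself set at 1.4-fold or more, can be laid beside the spread within them. The nearest libraries of the treatments differed by more than the low pH libraries did and by more than the controls did in 109 of 131 genes. In 9 genes the low pH libraries differed at least as much as the treatments did, in 15 genes the controls did, and in 2 of these both did. The choice of genes largely fixes these counts, and nothing is read from them. The smallest count of any gene of the set in any library was 284, which gives an error of 5.93% from counting alone. Counting error leaves out the variation between libraries. The common biological coefficient of variation in the fit over all genes was 23.7%.

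The low pH libraries differed most in orange1.1t01694 and Cs7g30170, and in opposite directions. The first lies on unplaced sequence (27524251 to 27525423, minus strand) and has no intron. Its normalized counts were 2592 and 9375 at low pH, and 1048, 784 and 746 in controls. Replicate 2 was 3.62-fold above replicate 1, and this gene also had the largest fold of means in the set, at 6.96. Its locus lies within orange1.1t01690 on the same strand, which had 28.0% of its normalized counts and a fold of 1.33. Cs7g30170, on chromosome 7 (30286929 to 30290910, minus strand), had normalized counts of 3877 and 1543 at low pH, and 555, 567 and 1022 in controls. Replicate 1 was its higher low pH library, by 2.51-fold. Without low pH replicate 2 the log2 fold change of orange1.1t01694 was 1.58 in place of 2.79, and without replicate 1 that of Cs7g30170 was 1.09 in place of 1.91. Low pH libraries were over 2-fold apart in 7 genes of the set, or 5.34%, and Cs7g30170 was the only one of these with replicate 1 higher. Among the other abundant genes 90, or 3.50%, were as far apart, with replicate 2 higher in 30.

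The authors' FPKM column gives another reading of the same libraries, as it is not a fixed multiple of count over length. On this scale both low pH libraries were above all controls in 131 of 131 genes, where 27.5% of all genes tested were, a count that the choice of genes largely sets. The ratio of the lower low pH to the highest control FPKM was within the bounds of the rule in 122 genes and under the lower bound in 9. The log2 ratio of treatment means differed between the columns by more than 0.25 in 10 of the 131 genes, or 7.63%, against 10.9% of all abundant genes. The largest differences, in genes named after their values were seen, were in Cs3g15040, where the FPKM ratio was lower by 0.58 on the log2 scale, and in Cs7g12910, where it was higher by 0.46.

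**Figure D5:**
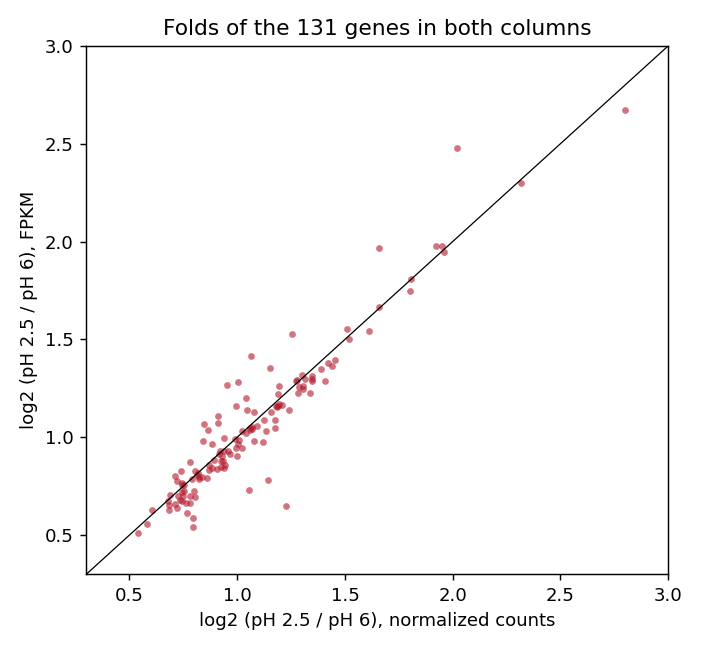
Log2 ratio of the low pH to the control mean on the FPKM column against the same ratio on the normalized column, 1 point for each of the 131 genes, with the line of equality. Points lie close to the line, with a median difference of -0.03, and 10 are more than 0.25 from it.

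Genes of the set had shorter models than other abundant genes. The median model was 2073 bases in the set, with quartiles of 1422 and 2876, against 2542 bases in the 2571 other abundant genes and 2397 in the moderately lowered ones. Models under 1000 bases made up 9.92% of the set, or 13 genes, and 3.03% of the other abundant genes, while models over 3000 bases made up 18.3% and 36.6%. In the moderately lowered genes models over 3000 bases made up 25.4%, so long models were fewer there too, and models under 1000 bases 1.41%. The median over genes of the mean FPKM was 107 in the set and 76.2 in the other abundant genes, and that of the mean normalized count, which is not divided by length, was 2903 and 2561. Across the 131 genes the ratio of mean normalized counts was lower in longer models, with a Spearman's rho of -0.27, which is given as a description because all genes come from the same libraries.

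Other features of the gene models were close to those of abundant genes at large. Models as long as their locus, without introns, made up 6.11% of the set and 5.91% of the other abundant genes. The plus strand held 51.9% and 50.4%. Loci named newGene, which stand apart from the other models in name, were 1 of 131 and 7 of 2571. That gene, orange_newGene_2167, on unplaced sequence (22248117 to 22250918, plus strand), was among the abundant ones, with normalized counts of 27855 and 34638 at low pH and 15580, 13209 and 14325 in controls.

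The set was drawn from every chromosome. Chromosomes 2, 9 and 7 gave 21, 13 and 20 genes, or 6.93%, 6.81% and 5.97% of their abundant genes, and unplaced sequences gave 21, or 6.16%. Chromosome 8 gave 3 of its 214 abundant genes, or 1.402%, and chromosome 5 gave 9 of 336, or 2.68%. The other chromosomes lay between, from 3.45% to 5.88%. These shares were not tested against each other.

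Pairs of neighbouring genes within the set were counted. The number to be expected for 131 of 28766 listed genes was not worked out, so nothing is read from these counts. Of 121 pairs of genes of the set that follow each other along a chromosome or the unplaced sequence, 8 were less than 100 kb apart and 2 had no other listed locus between them. The median distance was 950281 bases. One of the 2 adjacent pairs overlaps. Cs3g15390, a model of 498 bases without introns on chromosome 3 (19541890 to 19542387, plus strand), lies inside Cs3g15380, on the minus strand from 19541484 to 19545811. Cs3g15390 had FPKM values of 742 and 590 at low pH and 343, 403 and 368 in controls, and Cs3g15380 had 80.4 and 66.9 against 34.4, 37.6 and 37.0. Their folds of mean normalized counts were 1.84 and 2.06, and replicate 1 was the higher low pH library in both. The sources used here do not say whether strand was used in counting, and exon positions were not examined. How far the 2 genes share reads is therefore not known.

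The second adjacent pair lies on the minus strand of chromosome 9, with 12147 bases between the loci. Cs9g17210, from 16559500 to 16562093, had FPKM values of 278 and 316 at low pH, and 177, 110 and 167 in controls. Cs9g17220, from 16574241 to 16577743, had 331 and 329 against 184, 157 and 132. Control replicate 1 was the highest control in both, and their folds of mean normalized counts were 1.84 and 1.80. Whether the neighbours are copies of each other was not tested.

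Overlap with other loci touches a part of the set. The locus of 26 genes, or 19.8%, overlaps at least 1 other gene, against 17.8% of the other abundant genes. A partner lies on the opposite strand in 23 of the 26, and in 419 of the 457 other abundant genes with an overlap. In 16 genes a partner had at least 10% of the gene's mean normalized count, and in 7 it had more than the gene itself. Of these 7, Cs3g15380 has its larger partner, Cs3g15390, in the set as well. The levels of partners were not counted for the other abundant genes, so nothing is read from the 16 and the 7. Cs4g09810 on chromosome 4 overlaps Cs4g09870 on the same strand, whose mean normalized count was 48530 against 9055 and which was lower at low pH, at 0.573 of control. Cs6g06320 on chromosome 6 overlaps Cs6g06310 on the opposite strand, whose mean was 45696 against 22296 and which was 1.504-fold higher at low pH. These genes were named after their values were seen, and the sources used here do not say how reads were shared out in such loci. In 4 genes the locus was over 20 times as long as the model. The widest, Cs1g09350 on chromosome 1, spans 303539 bases for a model of 5484 bases and 13 other listed loci.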

How the data were processed

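Leaf RNA of 2 low pH and 3 control libraries was read from 1 table per library. A raw count, an FPKM value and a normalized value of each gene were deposited by the authors, per the file headers, with model length, locus and strand. The deposited normalized signal equals the count multiplied by 0.805 to 1.12, depending on the library. TopHat2, Cufflinks and DESeq are named, without roles, per the submitters' processing notes. The sources used here do not give the build, the annotation or the use of strand.

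The genes and alternatives were chosen with earlier results of these data known. Genes described singly were the 4 with the most reads, the highest and lowest ratio, the 2 with low pH libraries farthest apart, 1 just outside each bound and 2 neighbouring pairs. Lists by product name could not be used, as no identifier matched a name.

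Counts were compared with edgeR 4.0.16 in R 4.3.3, by the quasi-likelihood test, 2-sided, with TMM factors, filterByExpr and Benjamini-Hochberg adjustment over 16946 genes. SEs follow from the fold change and the F statistic. The common biological coefficient of variation was 23.7%. The test was also run on 3 simulated sets of counts with 200 genes changed in each. Those sets do not address how the calls in the real data depend on scaling or on single libraries. Alternatives were DESeq2 1.42.0, limma 3.58.1 on log2 of FPKM plus 1 or plus 0.1 (mean FPKM of at least 1), other scalings, filters and bounds, and leaving out each library. Those on FPKM ratios, on the order of the low pH libraries and on overlapping loci were added after seeing the data.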

Additional observations from a re-analysis of the deposited data

How the results depend on the processing

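No paired analysis was possible because replicate numbers only follow sample order within each treatment. DESeq2 called 4062 genes over the whole table against 2615 in edgeR's quasi-likelihood test, and leaving out 1 library gave 74 to 2029. Library totals alone left the number called within 1.5 times but moved the share that was higher at low pH from 46.2% to 75.6%. Genes of the set that were called numbered 2 to 104 with 1 library left out, and 123 to 131 under the other alternatives. Their median log2 fold change was 1.19 with library totals alone, which also moved the median of all genes from 0.02 to 0.23, and 0.88 to 1.04 with 1 library left out. It was 0.972 to 0.9998 otherwise. The rule gave 252 genes on counts per library total, 199 with a minimum mean of 1000, and 150 to 256 with 1 library left out. Other bounds, added values and the FPKM ratio gave 97 to 184. Of 169 values for the 13 genes described singly by rule, 149 moved by less than the spread between replicates, 20 by more and 0 changed sign. In each of the 13 genes both low pH libraries were above every control, which largely fixes the sign. A lone low pH library takes its spread from the controls. With 2 low pH libraries, which of them is more typical of the treatment cannot be told.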
